A study of Mus musculus with 18 samples.

Results

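The proteasome is the protease complex that destroys proteins tagged with ubiquitin. Its 20S core is a barrel of stacked rings: the alpha rings gate the entrance, and the beta rings hold the catalytic sites, which are the caspase-like site of Psmb6, the trypsin-like site of Psmb7 and the chymotrypsin-like site of Psmb5. The 19S particle caps the core, binds ubiquitin chains, unfolds the substrate with a ring of ATPases and feeds it into the barrel. Assembly chaperones build both parts, and other activators can take the place of the 19S particle. Blood cells exchange catalytic subunits for inducible ones under interferon, and proteasome inhibitors are in clinical use against blood cancers.

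The genes were chosen by symbol: every symbol of the deposited expression table that starts with Psm, a letter from a to g and a digit, with a mean of at least 1 CPM (the count scaled to a fixed library total) in at least 1 group. Of 54 matching symbols, 4 pseudogene symbols were left out, as were 2 immunoproteasome subunits (Psmb8 and Psmb9), which the rule excludes by name. Psmb11, the thymus subunit, was below the minimum. This left 47 of 53946 genes, and all 47 passed the filter on low counts, as did 16233 genes in total. Expression entered the rule only through that minimum. Not every member is a subunit. Psmc3ip encodes a partner of recombinases and is matched only by its name, and Psme2b is a near-copy of Psme2, so its counts are uncertain.

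RNA was sequenced in 12 mouse libraries of the C57BL/6 strain, in 4 groups of 3. WT libraries are of C57BL/6 bone marrow sorted for hematopoietic stem and progenitor cells (HSPCs). NHD13 libraries are labelled NHD13/Setd2 flox/flox and are of bone marrow HSPCs with both Setd2 alleles floxed and with the transgene NUP98-HOXD13, a fusion oncogene that gives mice a myelodysplastic syndrome. KO libraries are labelled NHD13/Setd2 KO and came from bone marrow HSPCs that carry the same transgene and have lost Setd2 through Mx1-Cre, a recombinase under an interferon-responsive promoter that acts in blood cells and also in other tissues. AML libraries are labelled NHD13/Setd2 KO - AML and came from C-Kit+ cells sorted from the spleen at the leukemia stage. The NHD13, KO and AML groups thus share the transgene, and AML differs from KO in stage, tissue and sort together. The labels do not give age, sex or the number of mice, so a p-value measures only the spread between these libraries. Setd2 encodes the enzyme that trimethylates histone H3 at lysine 36 (H3K36me3), a mark of transcribed gene bodies. H3K36me3 was profiled in 1 library each of leukemic C-Kit+ spleen cells, labelled NHD13 - AML in the first and NHD13/Setd2 KO - AML in the second, and DNA methylation in 1 bisulfite library per group of the RNA series.

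Libraries held 18673704 to 28127686 counts. WT replicate 1 stood apart from the other WT libraries, at 29.7 to 30.9 in chi-square per degree of freedom over genes, against 4.02 between WT 2 and 3. NHD13 libraries differed by 8.39 to 25 and AML libraries least (1.97 to 2.63). Total Setd2 reads did not check the KO label: Setd2 was at 27.3 to 32.2 CPM in KO, 25.7 to 28.6 in NHD13 and 223 to 229 in AML, and the counts cover the whole gene, not the deleted part. Xist was at 53.9 to 229 CPM in WT and NHD13 and at most 0.0979 in KO and AML, with Y-linked Eif2s3y the other way round, so sex and Setd2 genotype cannot be told apart in KO against NHD13. The NHD13 libraries, though labelled HSPC, stood apart from the other groups in marker sums. The summed CPM of 8 HSPC markers was 77.8 to 84.3 in NHD13, against 858 to 899 in WT, 330 to 346 in KO and 728 to 747 in AML, and that of 12 neutrophil markers was 116000 to 128000 in NHD13, against 27800 to 32600, 48600 to 51500 and 30100 to 31000. All 8 HSPC markers were lower in NHD13 than in WT, with log2 fold changes from -6.84 (Flt3) to only -0.45 (Kit). All 12 neutrophil markers were higher, from 1.19 (Mpo) to 7.4, with Elane at 1.95. What mix of cells this reflects was not tested. No marker of either list was at 0 in any group. In bulk libraries such as these, fewer cells of a type and less RNA per cell cannot be told apart.

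Sequence near the transcription start is shown for members that the results turn on, because most of these genes moved together. RefSeq promoter windows (GRCm38.p6, 250 bases before to 50 after a start, written 5′ to 3′ on the strand of the gene) were at hand for 39 of the 47 members. Psmb5 and Psmb6 encode catalytic subunits, Psme4 is the only member that rose in AML, Psmd2 is the subunit that rose most in NHD13, Psma2 stands for the alpha ring, and Psmb10 is the inducible catalytic subunit. Capitals mark matches, on either strand, to 4 motifs: the antioxidant response element TGACNNNGC, to which the proteasome gene regulators Nfe2l1 and Nfe2l2 bind, the ETS core CCGGAAG, the CCAAT box CCAAT, and the core TGCGCA of nuclear respiratory factor 1, which is not Nfe2l1.
Psmb5: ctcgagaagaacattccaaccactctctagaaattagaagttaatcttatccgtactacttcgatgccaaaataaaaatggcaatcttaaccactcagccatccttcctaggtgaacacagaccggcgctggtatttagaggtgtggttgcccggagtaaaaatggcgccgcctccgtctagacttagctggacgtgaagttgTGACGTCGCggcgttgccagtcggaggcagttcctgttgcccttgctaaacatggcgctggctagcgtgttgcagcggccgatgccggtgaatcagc
Psmb6: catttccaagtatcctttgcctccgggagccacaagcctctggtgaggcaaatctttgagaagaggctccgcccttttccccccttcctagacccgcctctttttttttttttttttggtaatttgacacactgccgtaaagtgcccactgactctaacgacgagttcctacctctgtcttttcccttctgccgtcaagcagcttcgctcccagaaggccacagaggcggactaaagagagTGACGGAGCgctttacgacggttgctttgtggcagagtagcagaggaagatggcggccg
Psme4: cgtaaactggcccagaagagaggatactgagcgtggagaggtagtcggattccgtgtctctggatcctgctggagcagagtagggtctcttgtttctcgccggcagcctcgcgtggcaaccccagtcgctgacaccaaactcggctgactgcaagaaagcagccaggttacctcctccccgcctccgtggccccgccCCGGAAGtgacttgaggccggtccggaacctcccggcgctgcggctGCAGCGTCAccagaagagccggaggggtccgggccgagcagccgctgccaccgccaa
Psmd2: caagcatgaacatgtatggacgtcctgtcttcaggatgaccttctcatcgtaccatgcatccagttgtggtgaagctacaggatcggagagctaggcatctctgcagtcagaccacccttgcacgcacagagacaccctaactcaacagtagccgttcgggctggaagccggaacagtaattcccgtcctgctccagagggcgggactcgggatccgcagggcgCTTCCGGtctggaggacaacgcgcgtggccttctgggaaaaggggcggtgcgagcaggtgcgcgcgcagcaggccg
Psma2: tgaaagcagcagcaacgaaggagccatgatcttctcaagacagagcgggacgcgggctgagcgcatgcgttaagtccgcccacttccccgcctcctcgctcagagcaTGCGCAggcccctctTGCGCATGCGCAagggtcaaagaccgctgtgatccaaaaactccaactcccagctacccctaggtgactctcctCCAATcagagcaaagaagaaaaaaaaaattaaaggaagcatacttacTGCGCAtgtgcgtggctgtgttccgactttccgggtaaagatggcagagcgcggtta
Psmb10: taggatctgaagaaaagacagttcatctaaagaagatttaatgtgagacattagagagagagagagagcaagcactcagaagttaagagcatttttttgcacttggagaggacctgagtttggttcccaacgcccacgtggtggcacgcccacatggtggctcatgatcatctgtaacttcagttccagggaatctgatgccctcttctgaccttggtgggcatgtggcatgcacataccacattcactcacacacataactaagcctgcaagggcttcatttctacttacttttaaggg

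These windows lie at chr14:54617946-54618245 on the minus strand (Psmb5), chr11:70525107-70525406 on the plus strand (Psmb6), chr11:30771525-30771824 on the plus strand (Psme4), chr16:20651402-20651701 on the plus strand (Psmd2), chr13:14612992-14613291 on the plus strand (Psma2) and chr8:105938343-105938642 on the minus strand (Psmb10). The antioxidant response element match began 47 bases before the start in Psmb5, 9 in Psmb6 and 7 in Psme4. Psmd2 had an ETS core 26 bases before its start, and Psme4 had an ETS core 53 bases before. Psma2 had 4 NRF1 cores, at 143, 128, 122 and 7 bases, and a CCAAT box at 54 bases. No match to the 4 motifs was in the Psmb10 window, which had a GC content of 45.7% against 65.3% in Psme4. Across the 42 windows of the 39 members, 1 pair of matches to different motifs overlapped.

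The ETS core was in 15 of 39 members (38.5%), against 9.93% of 27025 genes with a window and 19.3% of those tested for expression. The other motifs were about as common in the members as in other genes. Antioxidant response elements were in 6 members (15.4% against 14.0% of all genes), CCAAT boxes in 13 (33.3% against 41.1%) and NRF1 cores in 6 (15.4% against 8.79%, or 15.1% of tested genes). The 15 members with an ETS core included 3 of the ATPases (Psmc1, Psmc2 and Psmc6) and 6 other 19S genes (Psmd2, Psmd4, Psmd6, Psmd11, Psmd12 and Psmd13), but only Psma6 among subunits of the core. Psmb1, Psmb2 and Psmb7 of the core and Psmc3, Psmd3 and Psmd7 of the 19S particle had no window to search. As a description with no test, the median log2 fold change of members with an ETS core was 0.30 in NHD13 against WT, -0.16 in KO against NHD13 and -1.52 in AML against KO. That of the 24 members without was 0.17, 0.02 and -1.94. Most members with an ETS core were 19S genes, so members with and without it also differ in their part of the proteasome.

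Levels between genes were compared as FPKM (counts scaled to gene length and to the library total), which the authors deposited and which carry no correction for composition. In the alpha ring of WT cells, Psma6 was highest at 480 ± 30.7 FPKM (SD, n = 3) and Psma2 lowest at 163 ± 13.3, a ratio of 2.94. The beta ring spread more widely. Psmb2 stood at 590 ± 36.7 FPKM and Psmb7 at 22.8 ± 2.61, while Psmb10, which can replace Psmb7 in the ring, stood at 145 ± 2.99. The ratio of Psmb2 to Psmb7 was 25.9. The deposited lengths behind this ratio are 1204 bases for Psmb2 and 3421 for Psmb7. The sources used here do not say what such lengths count, and all ratios per length between genes depend on them. Psmb1, at 555 ± 40.9 FPKM, was within the spread of Psmb2. Among the 19S ATPases, Psmc5 (184 ± 2.78 FPKM) was highest in WT and Psmc2 (51.4 ± 1.86) lowest, with Psmc6 (52.1 ± 6.71) within its spread. The other 19S subunits ran from Psmd1 (28.7 ± 0.878 FPKM), a scaffold, to Psmd7 (187 ± 5.17), the partner of the deubiquitinase subunit Psmd14. The activator Psme4, a large single-chain cap of the core, had 2.57 ± 0.218 FPKM in WT, against 248 ± 11.6 for Psme2 and 233 ± 8.37 for Psme1, which form the interferon-inducible cap. In all 4 groups Psma6 was highest of the alpha ring, Psmc5 of the ATPases and Psmd7 of the other 19S subunits. Psmb7 was lowest of the beta ring in all 4. The lowest alpha gene, ATPase and other 19S gene and the highest beta gene were not the same in every group.

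As a share of all counts, the 47 genes took 1.38% to 1.43% in WT, 1.22% to 1.25% in NHD13, 1.36% to 1.39% in KO and 0.507% to 0.521% in AML. Their summed CPM after TMM scaling, which sets libraries to a common level of most genes, ran instead from 12720 to 13606 in WT, 14927 to 15411 in NHD13, 14691 to 14893 in KO and 4076 to 4230 in AML. NHD13 was thus the lowest of the bone marrow groups by share of counts and the highest by TMM-scaled CPM. The AML libraries lay far below all others on both scales. CPM values from here on are TMM-scaled.

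**Figure D1:**
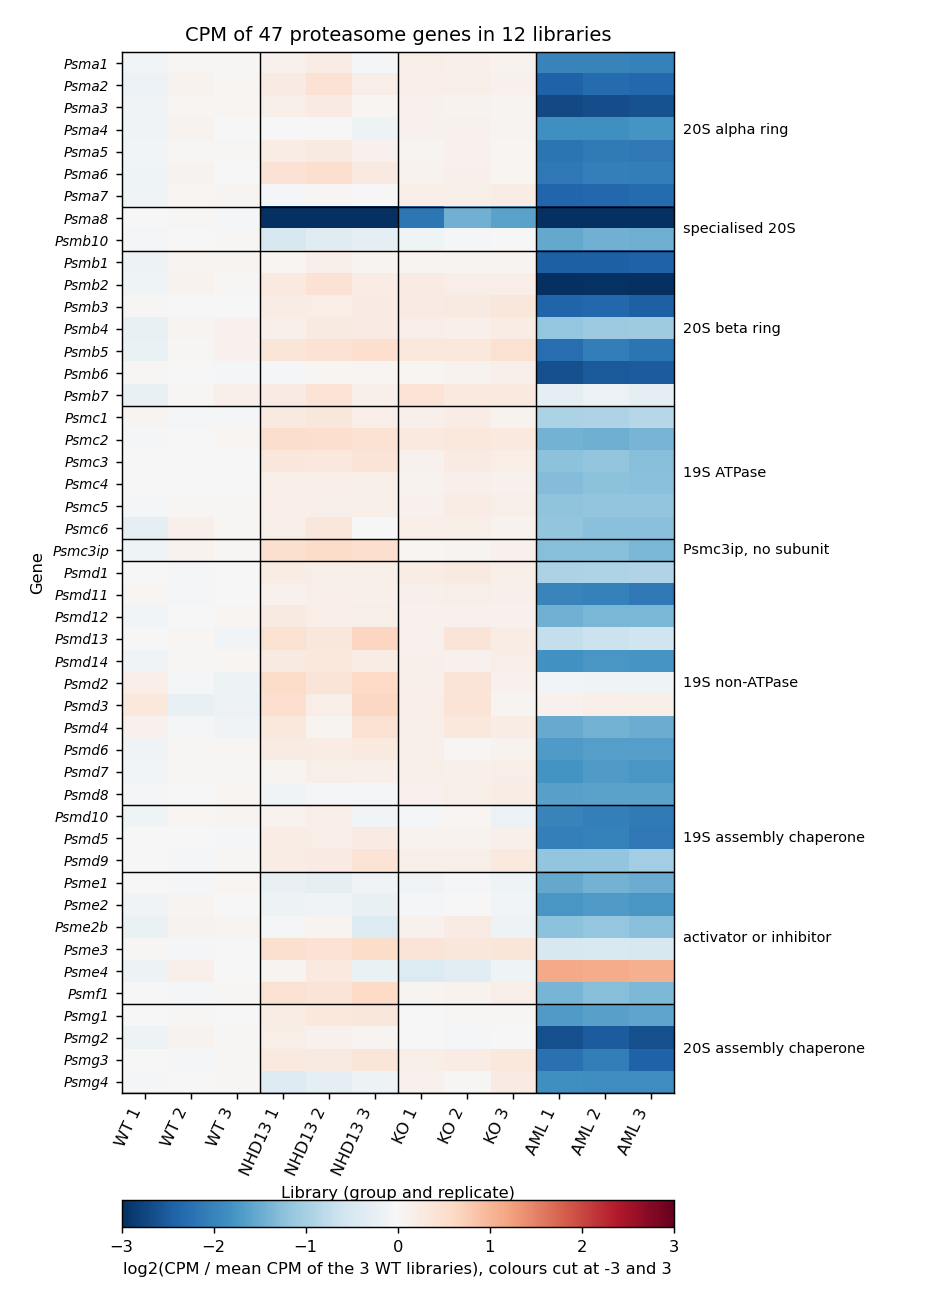
Each row is a gene, ordered by its part in the proteasome, and each column a library. Colour gives log2 of the CPM over the mean of the 3 WT libraries. Nearly every row is blue in the 3 AML libraries, Psme4 is red there, and Psma8 is blue from NHD13 on.

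The comparison of NHD13 with WT asks what the fusion oncogene changed in bone marrow cells. With TMM scaling most proteasome genes were slightly higher in NHD13, and the interferon-inducible ones were lower. At an adjusted p below 0.05 (edgeR), 31 of 47 members were higher and 5 lower, with a median log2 fold change of 0.21, while 25.3% of all tested genes were higher and 28.7% lower (54.0% called in all) with a median of -0.04. Of 2017 genes with a mean of at least 100 CPM, 1007 were higher and 303 lower, with a median of 0.18. The direction rested on the scaling. With library totals in place of TMM factors, 0 members were called higher and 25 lower with a median of -0.17, while 10.7% of all genes were higher and 53.2% lower around a median of -0.42. The members' median stood 0.25 above that of all genes on both scales, with 39 of 47 members above it, but 0.04 above it with limma on log2(FPKM + 1), with 29 above. Neutrophil markers differed between these groups as given above, and all 10 G2/M genes were higher in NHD13, with a median log2 fold change of 0.97. The part of these differences in the result was not tested.

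The 19S particle had the most members called higher. Of the ATPases 5 of 6 rose and of the other subunits 10 of 11, with a median log2 fold change of 0.25 over the 17 genes. Psmd2, a scaffold subunit that binds shuttle proteins, was at 258, 216 and 203 CPM in WT and 331, 296 and 340 in NHD13, a log2 fold change of 0.51 ± 0.09 (SE, n = 3 per group, adjusted p = 7.67e-05). Psmc2, an ATPase, was at 234, 240 and 255 CPM in WT and 353, 346 and 331 in NHD13 (0.50 ± 0.05, adjusted p = 2.2e-07). The groups did not overlap for either gene. Psmc3ip, the recombinase partner, was at 42.4, 49.8 and 47.3 CPM in WT and 64.9, 68.0 and 65.9 in NHD13 (0.51 ± 0.07). In the core, 9 of 14 ring genes rose and 0 fell. Psmb5, the chymotrypsin-like subunit and main target of clinical inhibitors, was at 207, 243 and 261 CPM in WT and 304, 318 and 334 in NHD13 (0.43 ± 0.08, adjusted p = 1.25e-04). Psmb7 moved from 63.1, 74.6 and 81.8 CPM to 87.2, 96.7 and 81.4 (0.27 ± 0.09, adjusted p = 0.011), with overlapping groups, and its call was lost without NHD13 replicate 2 (adjusted p = 0.0561). Psmb6, at 581, 570 and 553 CPM in WT and 556, 594 and 590 in NHD13, did not pass the test (0.03 ± 0.06).

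The 5 members that fell included the inducible subunits of the list. Psmb10, the interferon-inducible partner that replaces Psmb7, was at 225, 232 and 239 CPM in WT and 167, 179 and 194 in NHD13 (-0.36 ± 0.06, adjusted p = 7.22e-05). The interferon-inducible cap fell less. Psme1 went from 479, 469 and 499 CPM to 410, 397 and 445 (-0.21 ± 0.06, adjusted p = 0.00532), and Psme2 from 383, 436 and 415 to 367, 379 and 351 (-0.17 ± 0.06, adjusted p = 0.0194). No library of WT was below one of NHD13 for these genes, but the Psme2 call was lost under most alternatives, and both were lost with a correction for gene length (-0.10 and -0.04). Psme3, the nuclear cap, and Psmf1, the inhibitor of the core, rose instead, both by 0.49 on the log2 scale. Psmg4, a chaperone of core assembly, was at 88.2, 93.3 and 94.0 CPM in WT and 70.7, 76.0 and 82.6 in NHD13 (-0.26 ± 0.07, adjusted p = 0.00344), also lost with the length correction (-0.13).

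Psma8, the alpha subunit known from the germ line, fell most. It was at 13, 13.1 and 12.2 CPM in WT and 1.24, 1.52 and 1.33 in NHD13, a log2 fold change of -3.22 ± 0.20 (adjusted p = 4.78e-10). It was then at 2.85, 4.72 and 4.22 CPM in KO and had no count in the 3 AML libraries. Its order over the groups, WT above KO above NHD13, was also that of the HSPC marker sum in bone marrow, but not in AML, where the marker sum was high. The share of the marker difference in its change was not tested.

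Genes around the proteasome were listed by role. Of 11 proteasome-bound partners, 5 were higher and 1 lower in NHD13. Sem1, a small 19S subunit outside the Psm names, rose by 0.86 ± 0.07 and Uchl5, a 19S deubiquitinase, by 0.43 ± 0.06 (log2 fold change ± SE), while Zfand5, a 19S-binding activator, fell by 0.37. Of 16 ubiquitin and shuttle genes, 6 were higher and 2 lower. Of 11 regulators of proteasome genes, 2 were higher and 2 lower. Mafg, a partner of Nfe2l1 and Nfe2l2, rose by 1.02 ± 0.08 and Nfyb by 0.43 ± 0.07, Nfya fell by 0.53, and Nfe2l1 (-0.01 ± 0.12) and Nfe2l2 (0.06 ± 0.06) did not pass the test. Of 10 tested antioxidant targets of Nfe2l2, 5 were higher and 4 lower, with log2 fold changes from -1.9 to 2.44. Gsr, glutathione reductase (2.10 ± 0.06), was among the higher and Prdx1, a peroxiredoxin (-0.86 ± 0.06), among the lower. Class I antigen presentation split, with 5 of 13 genes higher and 6 lower. The interferon-responsive Irf1 (-1.07 ± 0.07), Nlrc5 (-1.08 ± 0.11) and Tap1 (-0.65 ± 0.07) fell, and the chaperone Pdia3 rose (0.84 ± 0.06).

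**Figure D2:**
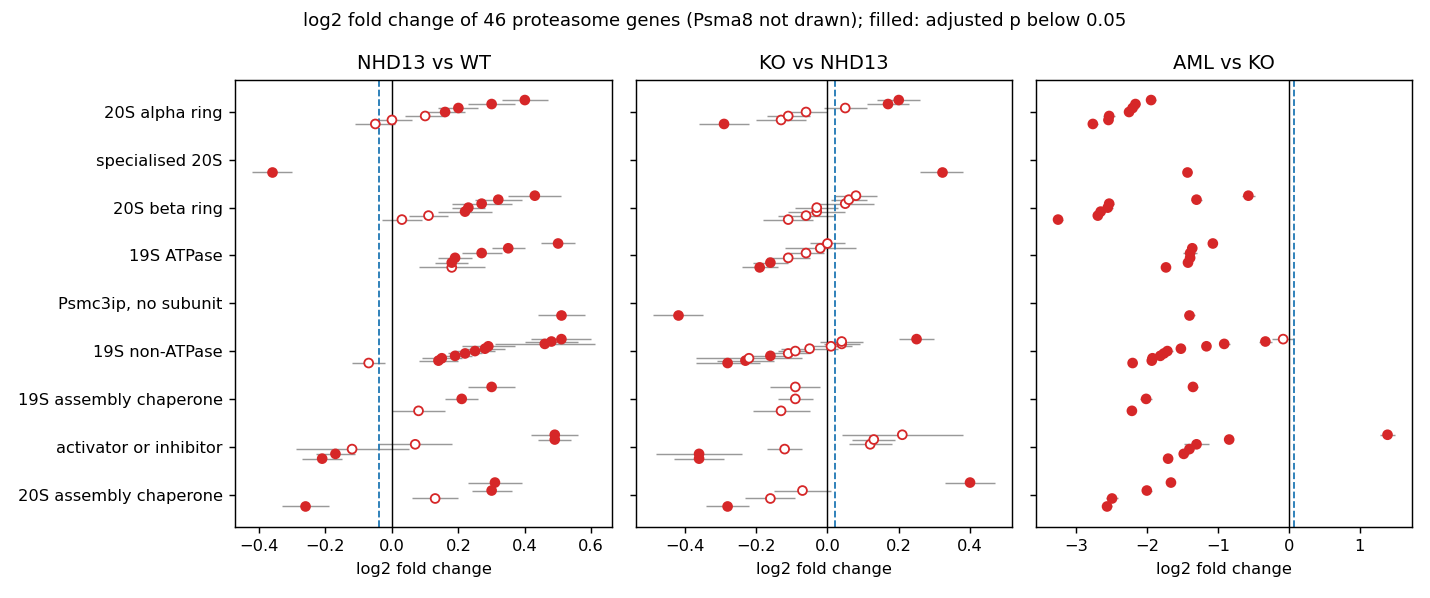
Each point is a gene, with its log2 fold change on the horizontal axis (lines, SE; filled, adjusted p below 0.05 by edgeR) and its part in the proteasome on the vertical axis. The horizontal scale differs between panels, the dashed line is the median of all tested genes, and Psma8 is not drawn. Members lie mostly right of the dashed line in NHD13 against WT, on both sides of it in KO against NHD13, and left of it in AML against KO, except Psme4.

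The comparison of KO with NHD13 asks what the loss of Setd2 changed on the oncogene background. The proteasome as a whole moved little: 6 members were higher, 10 lower and 31 not called, with a median log2 fold change of -0.06, against 20.6% of all tested genes higher and 20.3% lower (40.9% called in all) with a median of 0.02. The count of lower members was 6 to 8 in the 6 fits that each left out 1 of these libraries, and was 6 without NHD13 replicate 1, KO replicate 1 or KO replicate 3. With library totals, 18 members were higher and 2 lower with a median of 0.12, around a median of 0.21 for all genes, of which 33.8% were higher and 12.6% lower. With the length correction, 15 members were lower and 5 higher, against 23.2% and 18.6% of all genes. The members' median was 0.09 below that of all genes with TMM factors and with library totals, and 0.04 above it with limma on log2(FPKM + 1). Some marker lists moved further: all 12 neutrophil markers (median log2 fold change -3.44), all 8 B cell markers (-4.29) and all 10 G2/M genes (-0.44) were lower in KO, and all 8 HSPC markers (3.14) and all 5 megakaryocyte markers (2.92) were higher. Other lists did not move as a block. Of 8 erythroid markers 2 were higher and 1 lower (median -0.05). Of 7 monocyte markers 3 were higher and 4 lower, and of 5 tested T and NK cell markers 1 was higher and 3 lower. Their part in the members' values was not tested.

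Psmb10 rose, to 213, 226 and 234 CPM in KO (0.32 ± 0.06, adjusted p = 4.7e-04), all above the 167 to 194 of NHD13. Psmg4 also rose, to 99.9, 94.4 and 109 CPM (0.40 ± 0.07, adjusted p = 1.23e-04), as did Psma8 (1.54 ± 0.22, adjusted p = 2.2e-05). These 3 members were those that fell in NHD13 and rose in KO, and since both comparisons use the NHD13 libraries, a deviation of those libraries would give opposite changes. Psma4, Psma7 and Psmd8 rose by 0.17 to 0.25 on the log2 scale. Psme1, at 448, 469 and 442 CPM in KO (0.12 ± 0.06, adjusted p = 0.118), and Psme2, at 403, 410 and 388 (0.13 ± 0.06, adjusted p = 0.0819), did not pass the test.

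The genes that fell were Psmc3ip, Psmf1, Psme4, the core chaperone Psmg1, Psma6 and 5 genes of the 19S particle (Psmc2, Psmc3, Psmd2, Psmd6 and Psmd13). Psmc3ip went to 48.2, 49.5 and 51.2 CPM (-0.42 ± 0.07, adjusted p = 1.08e-04). Psmf1, the inhibitor, was at 103, 98.1 and 114 CPM in NHD13 and 79.3, 80.5 and 85.8 in KO (-0.36 ± 0.07, adjusted p = 2.44e-04). Psme4 was at 21.4, 24.9 and 17.6 CPM in NHD13 and 15.3, 15.9 and 18.4 in KO (-0.36 ± 0.12, adjusted p = 0.0179), with overlapping groups, and its call was lost without NHD13 replicate 1 or 2 or KO replicate 1 or 2 (adjusted p = 0.0538 to 0.134). Of the beta ring, 0 of 7 genes were called. Psmb5, at 294, 294 and 326 CPM in KO, changed by -0.06 ± 0.08, Psmb6, at 596, 611 and 633, by 0.08 ± 0.06, and Psmb7, at 96.5, 89.2 and 89.1, by 0.05 ± 0.08. With the length correction Psmb1 (-0.15), Psmb2 (-0.2) and Psmb5 (-0.21) were called lower in KO, and the other genes of the ring were not called.

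Of the partners, 4 of 11 were higher and 2 lower in KO, with Sem1 falling by 0.57 and Pomp, the maturation factor of the core, rising by 0.25 ± 0.05. The ubiquitin gene Ubb rose by 0.39 ± 0.07 and the Vcp cofactor Ufd1 fell by 0.30, among 4 higher and 3 lower of 16 ubiquitin and shuttle genes. Nfe2l2 fell by 0.47 and Ngly1, which processes Nfe2l1, rose by 0.50 ± 0.07, among 3 higher and 3 lower of 11 regulators. Irf1 (0.67 ± 0.07), Nlrc5 (0.71 ± 0.11) and Tap1 (0.32 ± 0.07) rose, among 4 higher and 3 lower of 13 antigen presentation genes. Of the 10 Nfe2l2 targets 3 were higher and 3 lower.

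The comparison of AML with KO sets leukemic spleen cells beside bone marrow cells of the same genotype. Nearly the whole proteasome was lower in AML: 45 of 47 members fell, 1 rose and 1 was not called, with a median log2 fold change of -1.73 (3.32-fold). Of all tested genes 39.5% were lower and 42.8% higher (82.4% called in all), with a median of 0.07, and of the 2017 genes with at least 100 CPM 1393 were lower, with a median of -0.91. The median of the members was -1.73 also with Psma8 at its bound, and lay between -1.28 and -1.92 under every alternative run, with 43 to 46 members lower and 1 higher. Tissue, sort and stage cannot be told apart as sources of this difference.

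All 14 ring genes of the core were lower, with a median log2 fold change of -2.53, against -1.42 for the 17 genes of the 19S particle, of which 16 were lower. The summed CPM of the alpha ring was 4285 ± 61.6 in KO and 833 ± 19.2 in AML (SD, n = 3), and that of the beta ring 3448 ± 58.3 and 658 ± 19.4. The 19S ATPases went from 1736 ± 43.7 to 666 ± 6.55 and the other 19S subunits from 3029 ± 61.6 to 1181 ± 19.1. Chaperones of core assembly fell from 380 ± 10.8 to 89.0 ± 1.89 summed CPM, and those of 19S assembly from 365 ± 4.28 to 97.0 ± 0.531. The activators and the inhibitor together had a median log2 fold change of -1.35, with 5 lower and 1 higher. The difference between the core and the 19S particle was not tested.

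**Figure D3:**
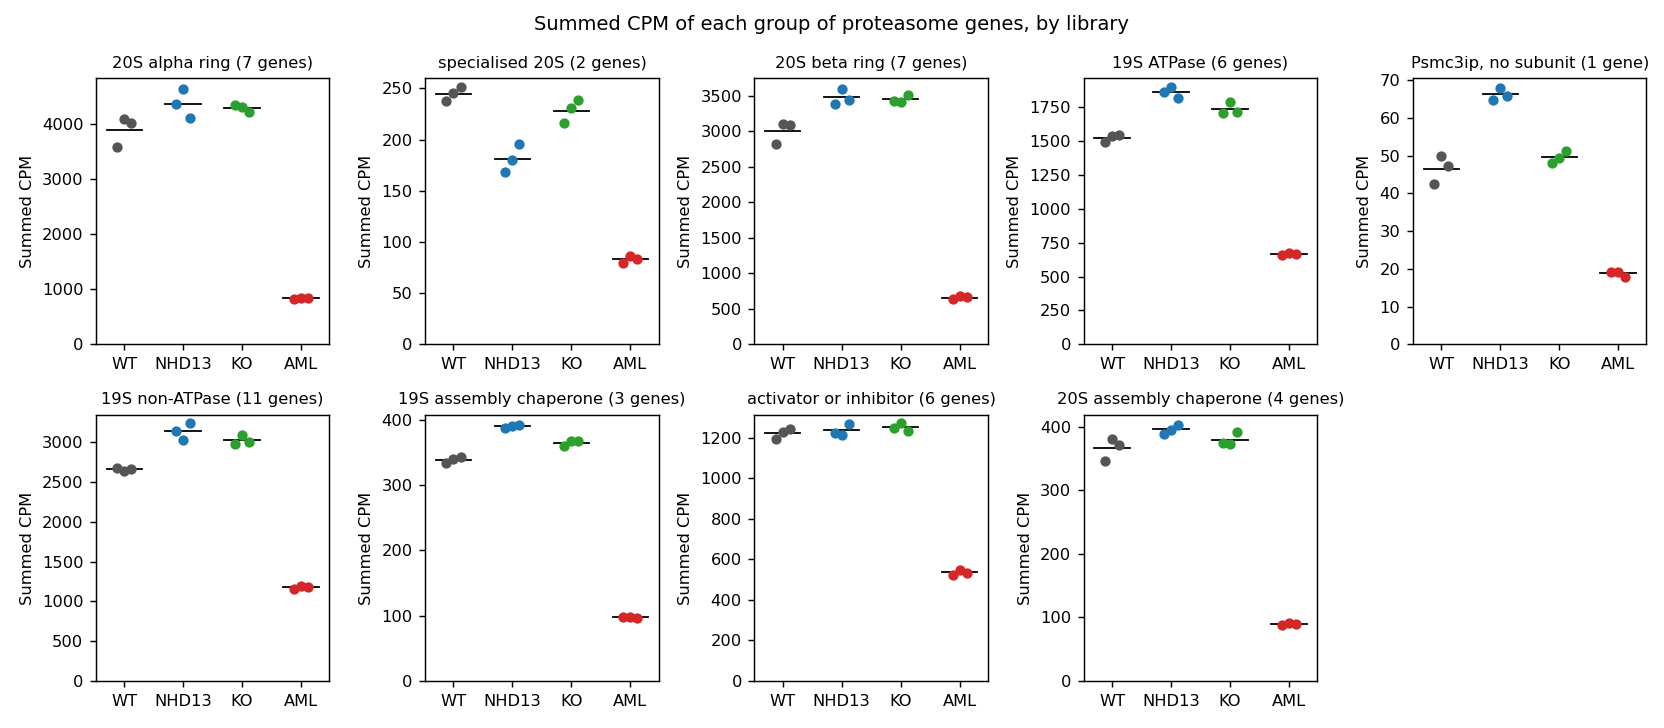
Each panel sums the CPM of the genes of a part of the proteasome (vertical axis, from 0), with a point per library, grouped by WT, NHD13, KO and AML, and a line at the mean of 3. AML libraries are the lowest in every panel, and in the alpha ring they lie between 811 and 845 against 4215 to 4333 in KO.

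Psmb2, a structural beta subunit, fell most among members with counts in both groups, though not after the length correction, where it was at -2.43 and Psmd5, a 19S assembly chaperone, at -2.97. It was at 788, 770 and 771 CPM in KO and 78.9, 85.0 and 80.7 in AML, a log2 fold change of -3.25 ± 0.07 (9.52-fold lower, adjusted p = 1.53e-17). Psma3, of the alpha ring, went from 726, 718 and 704 CPM to 102, 105 and 109 (-2.76 ± 0.07, adjusted p = 2.63e-17). Psma6, the highest alpha gene per length, went from 603, 613 and 582 to 125, 135 and 131 (-2.20 ± 0.07), and Psma4, the lowest on average over all groups, from 415, 410 and 402 to 105, 105 and 110 (-1.94 ± 0.07). The groups were far apart for each of these genes. Psma8 had no count in AML and 3.74 CPM of library totals in KO, at least 72.9-fold lower, taking 3 counts in the whole AML group as the floor.

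The catalytic subunits fell unequally. Psmb5 was at 48.6, 56.0 and 51.9 CPM in AML (-2.55 ± 0.08, adjusted p = 1.33e-15) and Psmb6 at 92.0, 99.6 and 101 (-2.65 ± 0.06, adjusted p = 1.38e-17). Psmb7 was at 60.0, 64.3 and 60.2 CPM (-0.57 ± 0.09, adjusted p = 5.37e-06), and its call was lost with library totals (-0.16). Psmb2 stood 24.1 times above Psmb7 per length in KO, and the highest beta gene in AML, Psmb1, stood 5.32 times above Psmb7. Psmb10 was at 79.8, 86.0 and 83.7 CPM (-1.43 ± 0.06, adjusted p = 1.41e-13). The inducible cap fell likewise, with Psme1 at 165, 179 and 173 CPM (-1.40 ± 0.06, adjusted p = 6.96e-14) and Psme2 at 122, 127 and 122 (-1.70 ± 0.06, adjusted p = 4.13e-15).

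In the 19S particle, Psmd11, a subunit that stabilises the joined complex, fell most (-2.20 ± 0.06), from 246, 248 and 245 to 56.1, 54.2 and 50.1 CPM. Psmd14, the deubiquitinase, fell by 1.93 on the log2 scale and Psmd4, a ubiquitin receptor, by 1.71. Psmd7, the most abundant 19S gene per length outside the ATPases, was at 449, 438 and 455 CPM in KO and 114, 123 and 119 in AML (-1.92 ± 0.06), and Psmd1 at 229, 238 and 222 against 101, 103 and 105 (-1.16 ± 0.05). The ATPases lay between -1.73 (Psmc2) and -1.07 (Psmc1), and between -2.19 and -0.53 for the same genes with the length correction. Psmc5 was at 264, 282 and 272 CPM in KO and 104, 107 and 107 in AML (-1.36 ± 0.05, but -0.59 with the length correction), and Psmc6 at 198, 193 and 184 against 75.8, 71.8 and 72.6 (-1.39 ± 0.10). Among assembly chaperones, Psmg3 went from 33.9, 34.8 and 37.3 CPM to 6.29, 7.03 and 5.58 (-2.49 ± 0.09), Psmd10 from 81.4, 88.3 and 75.2 to 21.1, 20.3 and 19.3 (-2.01 ± 0.09) and Psmd9 from 86.7, 86.0 and 93.5 to 33.7, 33.7 and 37.3 (-1.35 ± 0.07). Psmg4 was at 25.7, 25.1 and 25.2 CPM (-2.00 ± 0.07).

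A pair of genes, Psmd2 and Psmd3, had the smallest differences of the 19S particle without the length correction. Psmd2 was at 252, 297 and 246 CPM in KO and 214, 211 and 207 in AML (-0.33 ± 0.09, adjusted p = 0.00194), and with library totals the value was 0.08 and not called. Psmd3 was at 174, 201 and 161 CPM in KO and 164, 172 and 171 in AML (-0.08 ± 0.15, adjusted p = 0.605), with overlapping groups. Its libraries of KO were the more spread. With a correction for gene length both genes were called lower by edgeR, Psmd2 at -0.54 (adjusted p = 1.34e-06) and Psmd3 at -0.53 (adjusted p = 0.0014).

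Psme4 was the exception. The gene encodes the cap that opens the core without ATP and is known for the degradation of acetylated histones. It was at 15.3, 15.9 and 18.4 CPM in KO and 44.3, 43.6 and 42.3 in AML, a log2 fold change of 1.39 ± 0.11 (2.62-fold higher, adjusted p = 1.22e-09). WT libraries were at 18.2, 22.3 and 20.2 CPM, also below every AML library. The rise was 0.55 with the length correction, still called. Per length it remained low, at 6.40 ± 0.150 FPKM in AML against 86.5 ± 0.981 for Psme2.

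Gene length moved with this comparison across the transcriptome. In 5 length classes of all tested genes, from shortest to longest, the median log2 fold change was -1.08, -0.50, 0.08, 0.47 and 0.92. The members' medians in the same classes were -2.20, -1.70, -1.81, -1.60 and -1.25, with 4 members in each of the last 2 classes. Psme4 is the longest member, at 8382 bases. When a smooth trend on length was taken out, 46 members were lower and 1 higher, the members' median was -1.52, the core's -1.85, the 19S particle's -1.43 and that of the 3 chaperones of 19S assembly -2.11. Between the rings the order turned: the beta ring's median was -2.55 and the alpha ring's -2.25 without the correction, and -1.68 and -2.02 with it. Lengths are those of the deposited table, and the sources used here do not say what they count.

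**Figure D4:**
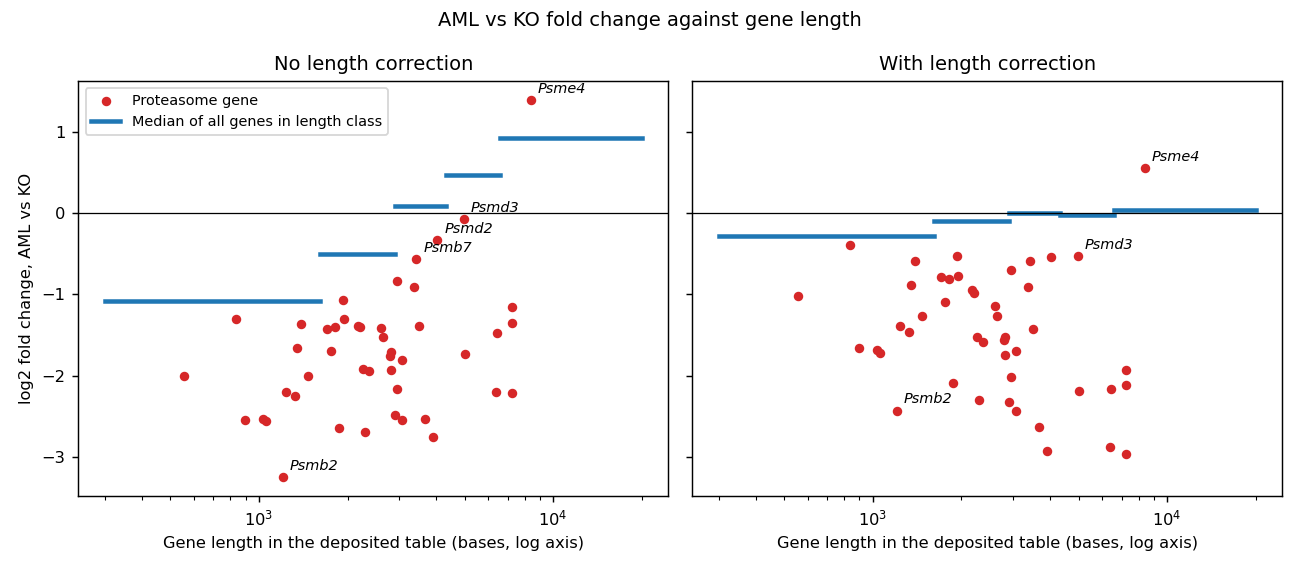
Each point is a proteasome gene (Psma8 not drawn), with its length on a log axis and its log2 fold change in AML against KO on the vertical axis. Bars show the median of all tested genes in 5 length classes, the outer classes cut to the axis. On the left the bars climb from -1.08 to 0.92 and nearly all members lie below them. On the right, after the length correction, the bars lie closer to 0 and Psme4 alone lies above.

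Genes that serve the proteasome changed in both directions. Of the 11 partners, 8 were lower and 3 higher. Txnl1, a 19S-bound thioredoxin (-2.36 ± 0.07), and Pomp (-1.91 ± 0.06) fell with the subunits, as did Sem1 (-1.64 ± 0.07) and Uchl5 (-1.44 ± 0.06). The 3 that rose, named after their values were seen, were AI314180, the older symbol of the proteasome adaptor Ecpas (1.58 ± 0.08), Zfand2a (0.65 ± 0.10) and the ligase Ube3c (0.30 ± 0.09). With the length correction AI314180 was at 0.60, and Ube3c turned to -0.60 and was called lower (edgeR, adjusted p = 4.24e-06). Of 16 ubiquitin and shuttle genes, 9 were higher and 6 lower: Ubb (-2.41 ± 0.07), which encodes ubiquitin, fell, and the shuttle Rad23b (2.07 ± 0.07) rose. The median log2 fold change of these 16 genes was 0.59, but 0.05 with the length correction.

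Of 11 regulators of proteasome genes 45.5% were higher and 45.5% lower, near the 42.8% and 39.5% of all tested genes. Nfe2l1, the activator of proteasome genes when proteasome activity is short, was at 25.5 CPM in KO and 109 in AML (means, log2 fold change 2.08 ± 0.12, adjusted p = 4.46e-11), and Ddi2, the protease that activates it, at 17.9 and 116 (2.69 ± 0.11, adjusted p = 2.14e-14). With the length correction Nfe2l1 was at 1.55 and Ddi2 at 1.79. Ngly1, which also processes Nfe2l1, fell by 1.20 on the log2 scale. Nfya, a subunit of the CCAAT-binding factor, rose by 3.94 ± 0.12 while Nfyc fell by 1.03. Of the 10 tested Nfe2l2 targets, 5 were lower and 2 higher, with Gclm (-2.80 ± 0.06), Prdx1 (-2.92 ± 0.07) and Nqo1 (-4.53 ± 0.16) among the lower. Antigen presentation genes were 5 higher and 6 lower of 13. Nlrc5 (3.23 ± 0.09) and Tap1 (1.40 ± 0.07) rose while H2-D1 (-1.08 ± 0.07), a class I heavy chain, and Pdia3 (-1.57 ± 0.07) fell.

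Other markers also differed between KO and AML. Of the 12 neutrophil markers 9 were higher and 3 lower in AML, with a median log2 fold change of 2.09, although their summed CPM, given above, was lower. Elane (-2.96 ± 0.08) was among the lower. The summed CPM of 8 erythroid markers was 635 to 660 in KO and 25.9 to 27.9 in AML, and that of 5 megakaryocyte markers 379 to 385 and 31.9 to 34.4, with 7 and 5 of them called lower. The sum of 7 T and NK cell markers was 1060 to 1110 and 180 to 187, but Nkg7 made up most of it, and of the 5 tested 2 were lower and 3 not called. The sum of 10 G2/M genes was 1260 to 1280 and 1350 to 1360. With TMM scaling, 6 of these genes were lower and 3, among them Mki67 and Top2a, higher, with a median log2 fold change of -0.58. All these sums are per library total, without the TMM factors used for the calls. The factors were 0.922 to 0.935 in KO and 1.22 to 1.25 in AML, so TMM scaling lowers AML sums against KO sums. No marker of these lists was at 0 in either group. The part of these cells in the fall of the proteasome genes was not tested.

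Read across the 3 comparisons, the most common pattern, in 21 members, was higher in NHD13, not called in KO and lower in AML. A further 9 members were higher, then lower, then lower again, among them Psma6, Psmc2, Psmc3 and Psmd2. Psme4 was the only member not called, then lower, then higher. Neighbouring comparisons share a group, so these patterns are counts and not independent steps.

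H3K36me3 covered the members more than other genes in the library labelled NHD13 - AML. A broad peak of the authors' list overlapped 46 of 47 members (97.9%), against 69.1% of 14244 tested genes with coordinates, and covered a median of 74.7% of the member's gene body, against 35.8% of all genes. Psma8 alone had no peak. In the library labelled NHD13/Setd2 KO - AML, 33 members (70.2%) had a peak, against 42.8% of all genes, with a median covered share of 10.9% against 0.0%. The other genes were not matched to the members in expression level or gene length. Each label has 1 library, so no test was possible. The whole lists differ as well, with 30953 peaks over 193.04 Mb in the first and 16902 peaks over 28.42 Mb in the second.

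Every member with a peak in the KO - AML library also had one in the NHD13 - AML library, and 13 members had one only in the latter (27.7%), as did 3926 of 14244 genes (27.6%). At least 50% of the gene body was covered in 41 members in the NHD13 - AML library and in 1, Psmd7, in the other (57%, from 78.2%). Those are 87.2% and 2.13% of the members, against 41.7% and 3.64% of all genes. The share in the KO - AML library rests on 1 member, too few to set it apart from that of all genes. Psmb5, Psmb6 and Psmb10 went from 45.7%, 69.5% and 42.1% covered to 0. Psmb2 went from 85.9% to 1.46%, and Psme4, the gene that rose, from 56.6% to 0.416%. Psmd2, whose RNA differed little between KO and AML without the length correction, went from 84.6% to 47.1%. Psme1 went from 62.6% to 48.0%. No RNA library is labelled NHD13 - AML, so the difference in the mark and the RNA values come from different contrasts.

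**Figure D5:**
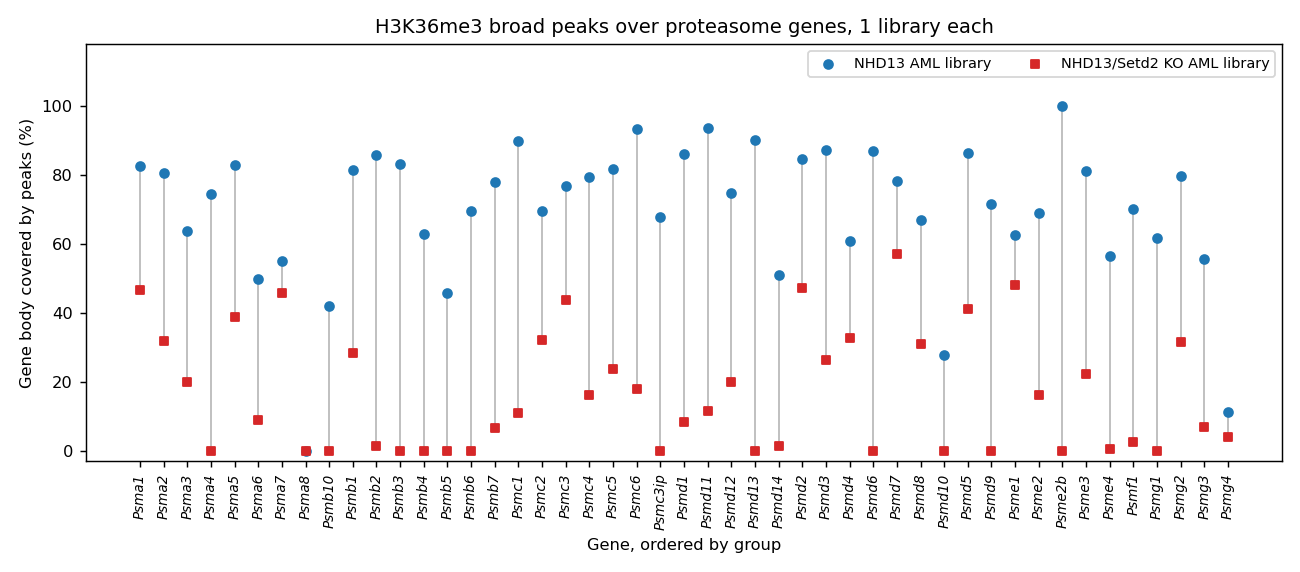
For each gene, ordered by its part in the proteasome, a circle gives the percentage of the gene body covered by H3K36me3 broad peaks in the NHD13 - AML library and a square that in the NHD13/Setd2 KO - AML library, with 1 library each. The squares are below the circles for all genes except Psma8, which is at 0 in both.

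Differentially methylated regions of the authors' deposited tables touched fewer members than other genes. Within the gene body or 2000 bases around it, the authors' deposited table for WT and NHD13 had a region in 10 members (21.3%, against 57.2% of all genes), that for NHD13 and KO in 13 (27.7%, against 7123 of 14244 genes) and that for KO and AML in 11 (23.4% against 52.6%). Lengths of gene bodies were not matched in these shares. In the authors' deposited table, members with a region lower in NHD13 than in WT numbered 10 and those with a higher one 1, against 48.1% and 23.5% of all genes. Against NHD13, the authors' deposited table had KO lower in 10 members and higher in 3 (30.2% and 30.1% of all genes). Against KO, the authors' deposited table had AML higher in 8 and lower in 5 (34.2% and 34.6% of all genes).

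Few regions lay near a start. At Psmd11, 198 bases from the start, the authors' deposited table gave a mean methylation of 0.0888 in WT and 0.258 in NHD13 over 32 CpG sites (chr11:80428813-80429000). An overlapping region (chr11:80428881-80429024) stood at 0.257 in NHD13 and 0.0796 in KO in the authors' deposited table, while Psmd11 RNA was at 229, 210 and 221 CPM in WT, 241, 248 and 245 in NHD13 and 246, 248 and 245 in KO. At Psme4, 128 bases from the start, it was 0.275 in KO and 0.113 in AML over 46 CpG sites (chr11:30771903-30772078) in the authors' deposited table, and Psme4 was the member whose RNA rose in AML. At Psma3, 328 bases from the start, the authors' deposited table gave 0.732 in WT and 0.487 in NHD13 over 12 CpG sites (chr12:70974086-70974295), and Psma3 RNA was higher in NHD13 (0.16 on the log2 scale). At Psme2, 629 bases from the start, it was 0.556 in WT and 0.276 in NHD13 over 8 CpG sites (chr14:55590142-55590392) in the authors' deposited table, and Psme2 RNA was lower. At Psmc3ip, 701 bases from the start, the authors' deposited table gave 0.433 in NHD13 and 0.181 in KO over 18 CpG sites (chr11:101096136-101096503), and Psmc3ip RNA was lower in KO. These are the 6 regions nearest to a start among members with a promoter window, and lower methylation went with higher RNA in some and with lower RNA in others. With 1 bisulfite library per group and no coverage in the tables, these differences have no replicate check, and their relation to RNA was not tested.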

How the data were processed

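Expression was measured by RNA-seq in 12 libraries, H3K36me3 by ChIP-seq in 2 and DNA methylation by bisulfite sequencing in 4. Groups and replicate numbers came from the titles of the samples. The members, gene lists, named genes and alternatives were chosen with earlier results of these data known, so no pattern here is independent support for those results.

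The authors deposited raw read counts per gene in a single table. Per the submitters' processing notes, HISAT2 2.0.5 and HTSeq 0.9.1 are named, with mm10 as the build, next to DESeq2 1.22.2, Bowtie2 2.2.9, SAMtools 1.7, MACS2 2.1.1.20160309, deepTools, Trimmomatic and Bismark 0.19.0. The sources used here do not say whether strand was used in counting, so genes with overlapping partners or processed copies are uncertain. FPKM values deposited by the authors equal count over gene length and column total. Broad peaks deposited by the authors carry a fold enrichment (a ratio), a score and −log10 p and q. Tables of regions with a methylation difference were deposited by the authors and give mean methylation per side as a fraction, a summed score and the CpG sites, per the file headers. The sources used here give neither their caller and coverage nor the input of the ChIP libraries. The sides of these tables were read from the order of the library names and checked on 4032 and 2467 identical regions.

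Counts were tested with edgeR 4.0.16 (R 4.3.3): TMM factors of 0.798 to 1.25, filterByExpr by group (16233 genes), 1 robust quasi-likelihood fit over 12 libraries with 8 residual degrees of freedom, and Benjamini-Hochberg adjustment at 0.05 over all tested genes. Each SE was the absolute log2 fold change over the square root of F. The edgeR fit was tested on simulated counts before use, with genes changed in NHD13 only and no length trend. That simulation did not check the scaling in AML against KO or the length correction. The floor for a group without counts was 3 counts and covers counting error only. CPM of Setd2, Xist and Eif2s3y and the summed CPM of the marker lists are per library total. Overlaps with peaks needed 1 base, and regions were counted in the gene body with 2000 bases on either side, for 14244 tested genes with RefSeq coordinates on GRCm38.p6, the same build as mm10. The length correction subtracted a lowess trend (span 0.3) on log2 length.

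Every member could be named. Values per library are given for the 3 highest and 3 lowest members of each comparison, the members with the highest and lowest FPKM per role, and Psmb5, Psmb6, Psmb7, Psmb10, Psme1, Psme2 and Psme4. From each list up to 4 genes with the smallest p were named, to which Nfe2l1 and Nfe2l2 were added after their values were seen, as regulators of proteasome genes. Single values of some list members are left out of the text. Psma8 and Psmg2 have no sequence printed, and Psmb1, Psmb2, Psmb7, Psmc3, Psmd3 and Psmd7 are without a promoter window in the table used.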

Additional observations from a re-analysis of the deposited data

How the results depend on the processing

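The fall of the members in AML against KO kept the direction of its median under every alternative run, with 43 to 46 members called lower. Its median moved to -1.92 with upper-quartile factors, -1.32 with library totals, -1.84 when only KO and AML were fitted, -1.52 with the length correction, with or without the replicate block, and -1.28 and -1.31 with limma on log2(FPKM + 1) and log2(FPKM + 0.1). The small changes of the other comparisons depended on the scaling. In NHD13 against WT, members called higher numbered 20 with upper-quartile factors (median 0.13) and 0 with library totals or either limma fit. The called lower then numbered 25, 27 and 26 and the median was -0.17, -0.16 and -0.17, in the order library totals, log2(FPKM + 1) and log2(FPKM + 0.1). With the length correction, alone or with the replicate block, 2 members were lower and the median was 0.32. In KO against NHD13, members called higher numbered 18, 19 and 19 and lower 2, 1 and 1 in the same order, with a median of 0.12 in each, and 5 were lower with upper-quartile factors. In that order too, log2 fold changes turned for Psmb6 (-0.36, -0.35 and -0.35), Psmb7 (-0.11, -0.10 and -0.11) and Psme4 (-0.31, -0.22 and -0.31) in NHD13 against WT and for Psmd2 (0.08, 0.09 and 0.09) in AML against KO. Library totals carry no composition factor. The limma fits also differ from edgeR in the test, the pseudocount and the length scaling, and the cause was not tested. Leaving out 1 library at a time gave 27 to 32 members higher and 4 to 5 lower in NHD13 against WT, 4 to 6 higher and 6 to 8 lower in KO against NHD13, and 45 lower in AML against KO. DESeq2 gave 32 higher and 4 lower, 5 and 11, and 1 and 45. With the replicate block there were 31 higher and 5 lower, 6 and 10, and 1 and 45, as without it. Replicate numbers did not pair the libraries: deviations of same-numbered libraries correlated at -0.088 to 0.109, and not every library correlated best with its own number. A −log10 q of at least 5 left 20 members with a peak in the NHD13/Setd2 KO - AML library (against 20.3% of all genes), and a coverage of at least 50% left 1 (against 3.64%). Regions with a methylation difference of at least 0.3 touched 3, 2 and 3 members for WT and NHD13, NHD13 and KO, and KO and AML (against 30.4%, 22% and 25.5% of all genes). For NHD13 and KO, 6 members had a region within the gene body (against 43.2% of all genes) and 8 a region of at least 10 CpG sites (against 39.0%). With 3 libraries per group, the number of libraries limits the precision, and for Psma8 the depth as well.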
